A study of Homo sapiens with 21 samples.

Results

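The genes described here are the ubiquitin-conjugating (E2) enzymes and the ubiquitin-specific proteases (USPs) of human induced pluripotent stem cells (iPSCs) as they became cardiomyocytes, apart from UBE2A and UBE2B. Members were taken by gene name: symbols that begin with UBE2 and a further letter, or that read USP and a number, with pseudogenes, UBE2A, UBE2B and genes of the Y chromosome left out. Of the 85 protein-coding genes of the human annotation that fit this rule, 35 E2 genes and 50 USP genes, 68 had at least 1 transcript in the 6 deposited tables (26 E2 and 42 USP genes), of 11850 genes listed in all. They held 132 listed transcripts of 21536, and 47 of the 68 genes had a transcript past both limits described below in some comparison. The other 17 were listed in no table: UBE2D1, UBE2F, UBE2F-SCLY, UBE2L5, UBE2M, UBE2NL, UBE2Q1, UBE2U, UBE2W, USP4, USP8, USP18, USP20, USP26, USP29, USP42 and USP50. Transcripts above a q-value of 0.05 are left out of the tables, so a gene that was not listed may have been expressed and steady, or not expressed.

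RNA was sequenced from wild-type cells of the human iPSC line PGP1 at 5 stages, with 3 libraries each: the iPSC itself, mesoderm (M), mesoderm committed to the heart (CMes), the cardiac progenitor (CP) and the cardiomyocyte (CM). CMs of 2 PGP1 lines that lack UBE2B (UBE2B-/-1 and UBE2B-/-2) were sequenced as well, with 3 libraries each, for 21 libraries in all. Cells were differentiated by activating and then inhibiting Wnt signaling, and beating wells were enriched for CMs by growth on lactate. The mutant libraries were made from beating wells, and mutant cells were plated at a higher density. Each mutant line came from its own editing experiment, so what is particular to 1 edited line and what follows from loss of UBE2B cannot be told apart within a line. Each replicate was a plate that entered differentiation at its own time.

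Ubiquitin is attached to proteins in 3 steps. An E1 enzyme activates it, an E2 enzyme carries it, and an E3 ligase guides it from the E2 to its target. USPs are the largest family of deubiquitinases, which take ubiquitin off again. UBE2A and UBE2B are the E2 enzymes of histone H2B, where a single ubiquitin marks transcribed genes, and several USPs remove ubiquitin from histones H2A and H2B. Other E2 enzymes and USPs serve mitosis, the proteasome, the endoplasmic reticulum, mitochondria and signaling, and vertebrate muscle is known for its own splice forms of some of these genes.

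Values are estimated counts per transcript, as geometric means over the 3 libraries of a group, with the SE of the log2 change and the replicate SD, which is the residual spread between libraries of a group on the log2 scale. The tables hold 1 fitted effect per transcript and no value per library, so whether single libraries of 2 groups overlap could not be seen. A transcript was called when its q-value was at most 0.05 and its fold change at least 1.79, which is the limit of log2(1.5) applied on the natural-log scale of the fit. A transcript below the fold limit is named as listed but not called. These q-values come from a normal distribution. With a t distribution on the 4 or 6 residual degrees of freedom of the fits, 3 member transcripts would be called from CP to CM and none in any other comparison, and of all transcripts 561 from CP to CM and at most 1 elsewhere.

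Several of the transcripts described below differ by coding segments that 1 transcript of a gene carries and another lacks. Segments that tell apart transcripts followed below are printed here in capitals, 5' to 3' on the strand of the gene, with 20 bases of the transcript on either side in lower case. Coordinates are GRCh38, and sequences are those of GENCODE 44, where all are annotated as coding exon sequence. The extension of an exon of USP5 (chr12:6863309-6863377, plus strand) has 69 bases, is carried by ENST00000229268 and is absent from ENST00000389231.
USP5 exon extension: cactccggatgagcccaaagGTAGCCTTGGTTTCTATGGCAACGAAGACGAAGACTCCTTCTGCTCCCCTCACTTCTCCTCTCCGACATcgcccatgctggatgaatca
The next 2 are whole exons of USP25, of 114 bases (chr21:15847663-15847776, plus strand) and 96 bases (chr21:15849777-15849872). Of 10 annotated transcripts, 2 carry the former, ENST00000400183 among them, and 3 the latter.
USP25 exon of 114 bases: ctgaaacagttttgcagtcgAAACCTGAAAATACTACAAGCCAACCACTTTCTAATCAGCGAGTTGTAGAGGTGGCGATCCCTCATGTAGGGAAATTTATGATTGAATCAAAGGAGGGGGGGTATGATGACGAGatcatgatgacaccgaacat
USP25 exon of 96 bases: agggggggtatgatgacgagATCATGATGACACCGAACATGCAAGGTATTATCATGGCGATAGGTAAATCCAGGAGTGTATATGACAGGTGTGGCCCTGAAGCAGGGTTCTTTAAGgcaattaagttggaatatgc
USP28, the closest relative of USP25, has whole exons of the same 2 lengths on the minus strand, at chr11:113808023-113808136 (114 bases, in 3 of 17 annotated transcripts) and chr11:113806489-113806584 (96 bases, in 4 of 17). ENST00000538224 carries both, ENST00000003302 carries the exon of 96 bases alone, and ENST00000544967 carries neither.
USP28 exon of 114 bases: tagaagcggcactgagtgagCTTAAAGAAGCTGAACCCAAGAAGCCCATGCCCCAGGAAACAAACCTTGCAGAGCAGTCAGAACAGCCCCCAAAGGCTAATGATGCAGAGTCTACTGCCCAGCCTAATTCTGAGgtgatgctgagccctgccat
USP28 exon of 96 bases: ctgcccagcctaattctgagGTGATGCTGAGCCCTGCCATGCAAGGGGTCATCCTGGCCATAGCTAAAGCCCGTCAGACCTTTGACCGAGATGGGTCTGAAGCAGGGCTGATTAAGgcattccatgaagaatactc
The last whole exon shown, of 87 bases, belongs to USP15 (chr12:62349221-62349307, plus strand). Among 19 annotated transcripts it is found in ENST00000280377 alone.
USP15 exon of 87 bases: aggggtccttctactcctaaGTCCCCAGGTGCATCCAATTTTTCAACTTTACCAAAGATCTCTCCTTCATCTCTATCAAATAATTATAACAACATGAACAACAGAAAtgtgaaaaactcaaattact
The last segment has 3 bases. It is what separates the coding sequence of USP16 ENST00000334352 from that of ENST00000399975 (chr21:29037276-29037278, plus strand).
USP16 start of an exon: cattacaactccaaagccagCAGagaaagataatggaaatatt
All of these have lengths divisible by 3, so the reading frame continues with or without them. Aligned base by base without gaps, the exons of 96 bases of USP25 and USP28 were identical at 63 positions (65.6%) and those of 114 bases at 36 (31.6%).

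The first transition, from iPSC to M, changed few of these genes. Of 26 listed member transcripts 10 were called, 3 higher and 7 lower, beside 1.24% of all 68446 transcripts tested that were called higher and 1.62% called lower. By gene, 6 of 85 E2 and USP genes had a called transcript (7.06%), against 7.24% of all protein-coding genes. USP44, a deubiquitinase of histone H2B that is known for keeping stem cells undifferentiated, fell from 4927 estimated counts in iPSCs to 1297 in M (log2 change -1.93 ± 0.24 SE, q = 2.45e-13, replicate SD 0.29), and its other listed transcript, which has the same coding sequence, fell from 929 to 399 counts. All 3 listed transcripts of USP32, a membrane-bound USP, fell, with log2 changes from -1.24 to -1.10. The most abundant of them had 2159 counts in iPSCs and 1006 in M (SE 0.12, q = 5.17e-16). USP9X, which acts in receptor trafficking and cell polarity, fell from 13836 to 6821 counts at a q-value close to the limit (log2 change -1.02 ± 0.33 SE, q = 0.0453). In the other direction, UBE2D2, a broad-range E2 that works with many E3 ligases, rose through its short transcript ENST00000505007 from 70.1 to 213 counts (log2 change 1.60 ± 0.29 SE, q = 3.37e-06). UBE2D3 and USP3 were called higher through a transcript of 116 and of 82.2 counts in iPSCs, and that of USP3, another histone deubiquitinase, is annotated as a target of nonsense-mediated decay. Of 10 pluripotency markers 3 were called lower here, as USP44 was, namely DNMT3B, L1TD1 and TERF1, and none higher. POU5F1, NANOG and SOX2 were not called at this step. The summed level of the 10 listed transcripts of the list, from 4 genes, was 105322 counts in iPSCs and 38123 in M. A single DNMT3B transcript held 55563 and 17231 of these counts. Whether USP44 fell beyond what these markers did was not tested.

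From M to CMes 15 of 36 listed member transcripts were called, 6 higher and 9 lower, beside backgrounds of 3.81% higher and 2.65% lower of all transcripts tested. A called transcript was found for 12 of the 85 genes (14.1%), as for 15.3% of all protein-coding genes. Here 59.0% of all called transcripts were higher, and 40.0% of the called member transcripts. The rise of UBE2D2 at M was reversed. ENST00000505007 fell from 228 to 64.9 counts (log2 change -1.81 ± 0.30 SE, q = 1.06e-07), and the main transcript of the gene, which was listed but below the fold limit, went from 3204 to 1879 counts. USP7, which acts on p53 regulation and on histone H2B, fell through ENST00000344836 from 1225 to 631 counts (log2 change -0.96 ± 0.20 SE), while its most abundant transcript, listed but not called, had 5891 counts in M and 3520 in CMes. USP36, a nucleolar USP, fell through 2 transcripts by 1.52 and 1.87 on the log2 scale, the more abundant of which is annotated as a target of nonsense-mediated decay. USP37, which acts in S phase, was the 1 member gene called in both directions, with ENST00000258399 at 723 counts in M and 387 in CMes (log2 change -0.90) and ENST00000454775 at 207 and 400 counts (log2 change 0.95). UBE2H, an E2 best known from maturing red blood cells, rose from 1686 to 3130 counts (log2 change 0.89 ± 0.24 SE, q = 0.00327). Not all of these calls rest on full coding transcripts: 6 of the 15 are annotated as noncoding, as retained introns or as targets of decay. Among these were USP21 and UBE2Z, each called higher through a retained intron alone, and USP45, called lower. USP15 fell through ENST00000353364 from 325 to 147 counts and USP35 rose from 49.9 to 125 counts. USP9X was called higher through a transcript with no annotated coding sequence, at 0.562 counts in M and 34.1 in CMes (q = 0.0484, replicate SD 1.34). USP22, the enzyme of the SAGA deubiquitinase module, was called lower through a transcript of 31.6 and 0.782 counts with a replicate SD of 1.77.

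From CMes to CP 13 of 38 listed member transcripts were called, 9 higher and 4 lower. At a limit of 1.5-fold the split was 12 higher and 17 lower, so the larger changes were mostly rises and the smaller ones mostly falls. The background was 3.8% higher and 2.63% lower, and 15.3% of the family's genes had a call, against 14.9% of all protein-coding genes. UBE2J1, the E2 of protein quality control at the endoplasmic reticulum, rose from 1289 to 3719 counts (log2 change 1.53 ± 0.10 SE, q = 1.28e-50, replicate SD 0.11). UBE2H rose further, from 3150 to 6014 counts (log2 change 0.93 ± 0.14 SE). USP53, found at cell junctions, rose from 207 to 513 counts (log2 change 1.31 ± 0.25 SE), and USP30, which removes ubiquitin from mitochondria, rose from 262 to 477 counts (log2 change 0.87 ± 0.17 SE). UBE2Q2, UBE2QL1 and USP43 rose as well, by 0.89, 1.58 and 2.12 on the log2 scale. UBE2QL1 was scarce, with 26.3 counts in CMes and 79.5 in CP. The calls of UBE2D2 (0.958 and 55.4 counts) and UBE2T (listed at 0 in CMes and at 27.5 counts in CP) also rested on low counts.

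The genes that fell from CMes to CP were USP44, UBE2N, USP37 and USP14. USP44 dropped from 973 to 173 counts (log2 change -2.49 ± 0.33 SE, q = 2.29e-12). UBE2N, which builds chains through lysine 63 of ubiquitin, dropped through ENST00000549833 from 1091 to 569 counts (log2 change -0.94 ± 0.12 SE), and its other 3 listed transcripts, none of them past the fold limit, had log2 changes from -0.75 to -0.68. USP14, a deubiquitinase bound to the proteasome, went from 533 to 258 counts through ENST00000383589 (log2 change -1.04). The mitotic E2 enzymes were listed on the lower side without reaching the fold limit. UBE2C, which starts ubiquitin chains for the anaphase-promoting complex, had 1787 counts in CMes and 1019 in CP (log2 change -0.81 ± 0.14 SE, q = 3.05e-07), and the main transcript of UBE2S, which lengthens those chains, had 1692 and 1113 (log2 change -0.60 ± 0.11 SE).

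**Figure D1:**
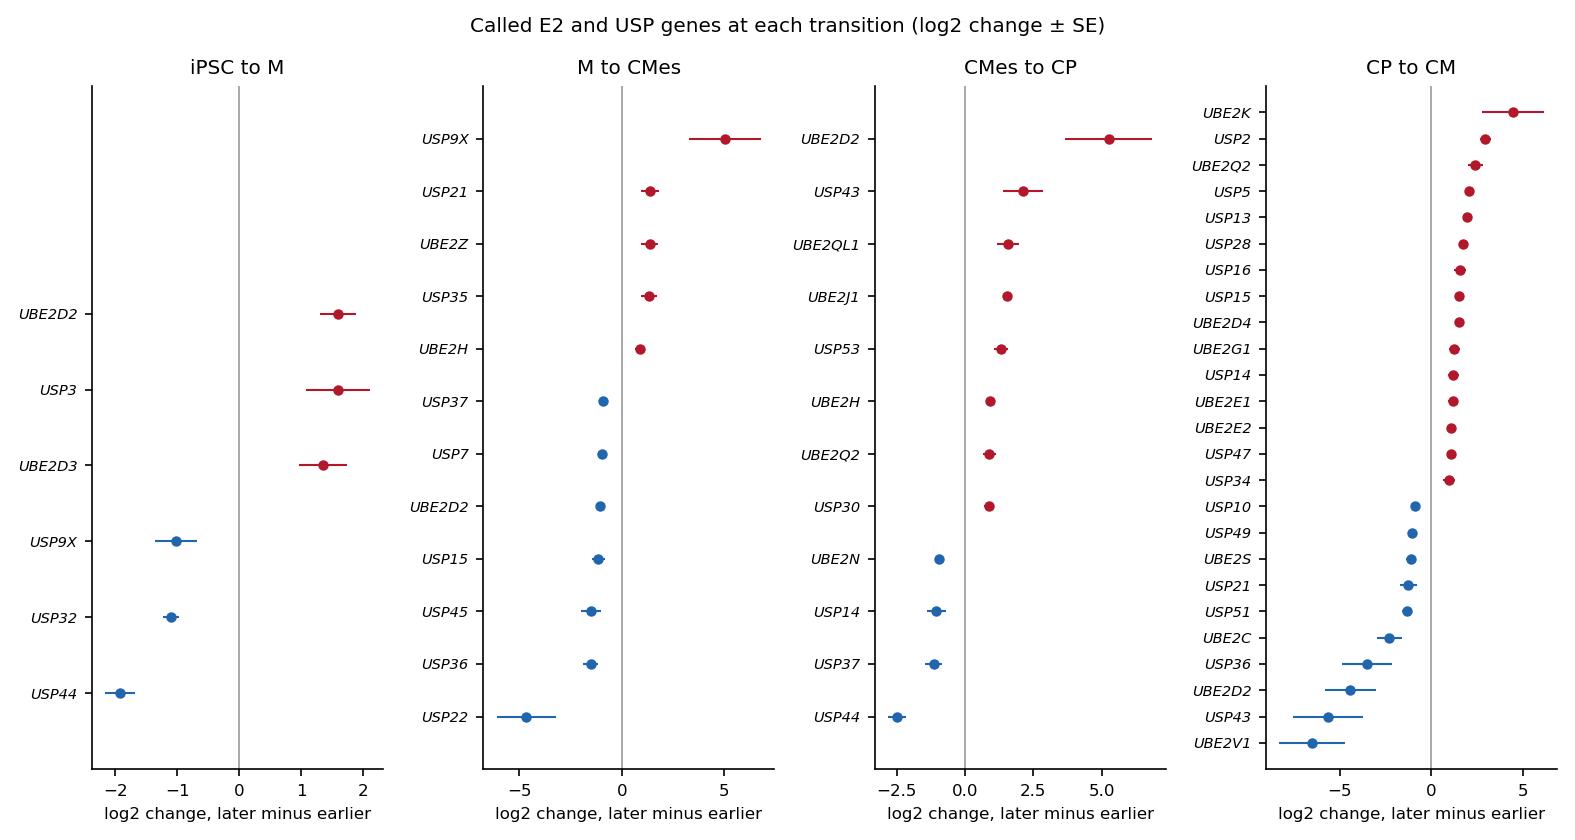
Log2 change (later minus earlier stage, ± SE, 3 libraries per stage) of each E2 or USP gene with a called transcript at the 4 transitions, shown by its called transcript of the highest mean, with rises in red and falls in blue. 6, 12, 12 and 25 genes are shown, and 1 gene at CMes to CP and 6 at CP to CM are left out because their transcript was listed at 0 in 1 group. The axes differ between panels, and long error bars mark transcripts of low counts.

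The step from CP to CM moved 31 of the 47 genes that were called at any comparison. Of 69 listed member transcripts 46 were called, 31 higher and 15 lower, beside 8.25% of all transcripts tested called higher and 6.99% called lower. By gene, 18 of 85 were called higher (21.2%, against 16.9% of all protein-coding genes) and 13 lower (15.3%, against 14.9%), and none in both directions. The median log2 change was 1.26 over the called member transcripts and 0.99 over all called transcripts. In 8 of the 46 calls 1 of the stages was listed at 0, so no fold is given for them. Of the member transcripts with a mean of at least 10 estimated counts, 26 were called higher and 8 lower. The makeup of the cultures moved at the same step: all 14 cardiomyocyte markers were called higher, their listed transcripts summing to 23937 counts in CP and 890312 in CM, while the listed pluripotency markers summed to 52704 and 1281 counts and those of endoderm and epithelium to 31715 and 2819. The part of these shifts in the members' changes was not tested.

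All 3 deubiquitinases of the list of free ubiquitin chains and the proteasome, USP5, USP13 and USP14, had a transcript called higher. The share of all protein-coding genes called higher was 16.9%. USP13, a relative of USP5 with roles in autophagy and protein quality control, went from 785 to 3051 counts (log2 change 1.96 ± 0.20 SE, q = 1.02e-19, replicate SD 0.25), and a second transcript rose by 1.71. USP14 went from 229 to 525 counts through ENST00000383589 (log2 change 1.20 ± 0.30 SE). Its main transcript, at 2290 counts in CMes, was not listed here, so this call does not stand for the gene. USP5, which takes apart unanchored ubiquitin chains, rose through the transcript with the exon extension printed above, ENST00000229268, from 521 to 2151 counts (log2 change 2.05 ± 0.19 SE, q = 7.08e-26, replicate SD 0.096). Its transcript without the extension, ENST00000389231, was listed but not called, with 1115 counts in CP and 702 in CM (log2 change -0.67 ± 0.23 SE, q = 0.0256). The transcript with the 69 bases was therefore the scarcer one in CP and the more abundant one in CM, at nearly the same transcript length of 3162 and 3083 bases. The sum of both was 1635 counts in CP and 2852 in CM. The transcript without the extension had already been lower in CP than in CMes, at 1259 against 2185 counts on the scale of that comparison.

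Transcripts of USP25 and USP28 that carry the exons printed above were called higher. The USP25 transcript with both exons, ENST00000400183, was listed at 0 in CP and had 122 counts in CM (q = 5.14e-12, replicate SD 0.25). No other USP25 transcript was listed at this transition. Among those not listed was ENST00000285679, without either exon, which had 1806 counts in M in the comparison with iPSCs. The USP25 call therefore does not stand for the gene. USP28, which acts on DNA damage and MYC stability, rose through ENST00000003302, with the exon of 96 bases, from 1016 to 3352 counts (log2 change 1.72 ± 0.15 SE, q = 8.11e-29), and through the fragment ENST00000538224, with both exons, from 3.45 to 100.1 counts (log2 change 4.67 ± 0.98 SE, q = 3.02e-05, replicate SD 0.67). The USP28 transcript with neither exon, ENST00000544967, was not listed here. It was listed on the lower side at 2 earlier steps, at 1459 counts in iPSCs against 1025 in M and at 867 counts in CMes against 549 in CP, below the fold limit both times. ENST00000538224 is a fragment of 582 bases, all of them annotated as coding, and its exon of 114 bases also stands in 2 longer transcripts of the annotation, neither of them listed.

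Other signaling and stress USPs also had transcripts called higher: USP2, USP15, USP25 and USP34 of 7 genes in that list, and none lower. The shares of all protein-coding genes were 16.9% called higher and 14.9% called lower. The USP25 call rests on the 1 transcript described above. USP34 was called through ENST00000453734 alone, from 130 to 256 counts. Its ENST00000398571, at 5308 counts in CP in the comparison with CMes, was not listed here, so this call does not stand for the gene. USP2, known for a role in cyclin D1 stability and as a gene under circadian control, rose through 4 transcripts with log2 changes from 2.94 to 5.08, and the sum of these was 130 counts in CP and 1511 in CM. Its most precise transcript, ENST00000455332, went from 79.3 to 610 counts (log2 change 2.94 ± 0.29 SE, q = 1.23e-22). USP15, which acts on TGF-beta signaling, rose through ENST00000280377, the transcript with the 87 bases printed above, from 337 to 969 counts (log2 change 1.52 ± 0.18 SE, q = 4.28e-16). The USP15 transcript without that exon, ENST00000353364, rose from 107 to 276 counts (log2 change 1.37 ± 0.49 SE, q = 0.0330), and the difference between these changes was not tested. USP47, of the list of DNA repair and checkpoint USPs with USP28, rose through 3 transcripts, led by ENST00000527733 from 1349 to 2844 counts (log2 change 1.08 ± 0.14 SE).

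**Figure D2:**
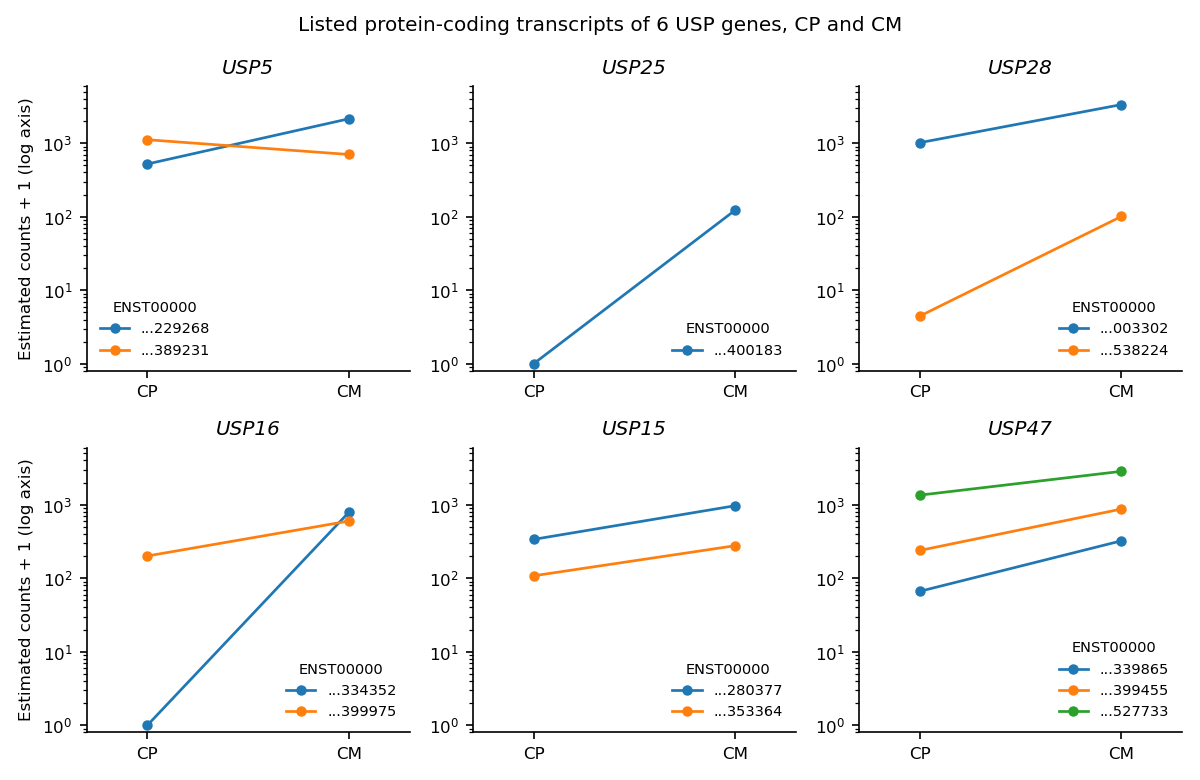
Estimated counts plus 1 (log axis, geometric mean of 3 libraries) at CP and CM for each listed protein-coding transcript of 6 USP genes, named by the last 6 digits of its identifier. The lines of USP5 cross, from 1115 and 521 counts in CP to 702 and 2151 in CM. ENST00000400183 of USP25 and ENST00000334352 of USP16 start from 0.

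The deubiquitinases of histones H2A and H2B moved both ways. Of 12 genes on that list 11 were listed at CP to CM, 2 were called higher (USP3 and USP16) and 5 lower (USP21, USP36, USP44, USP49 and USP51). Of all protein-coding genes 16.9% were called higher at this step and 14.9% lower. USP16, which removes ubiquitin from histone H2A, rose through ENST00000399975 from 200 to 599 counts (log2 change 1.58 ± 0.32 SE, q = 1.50e-05), while ENST00000334352, whose coding sequence differs by the 3 bases printed above, was listed at 0 in CP and at 793 counts in CM (replicate SD 0.05). The 2 transcripts differ by so few bases that reads between them are divided by the estimate, and their sum was 200 counts in CP and 1392 in CM. USP51, a deubiquitinase of histone H2A, fell from 341 to 133 counts (log2 change -1.35 ± 0.22 SE, q = 4.18e-08), and USP49, which acts on histone H2B, from 580 to 278 counts (log2 change -1.06 ± 0.17 SE, q = 2.83e-08). USP44 was called lower through ENST00000393091, at 64.4 counts in CP and listed at 0 in CM, while its main transcript was not listed at this step. USP3 rested on a transcript listed at 0 in CP and at 41.3 counts in CM. USP21 fell from 242 to 101 counts at q = 0.0355, and USP36 was called through a transcript of 26.3 and 1.86 counts with a replicate SD of 1.45. USP7, USP12, USP27X and USP46 were listed between log2 changes of -0.59 and 0.71, none of them past the fold limit. USP22 was not listed, and none of 5 genes of its SAGA module and of USP cofactors was called.

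Both mitotic E2 enzymes had a transcript called lower at the last step. UBE2C fell from 902 to 184 counts (log2 change -2.29 ± 0.68 SE, q = 0.00621), with a replicate SD of 0.83. UBE2S fell through ENST00000589978 from 271 to 125 counts (log2 change -1.12 ± 0.25 SE, q = 9.91e-05), and ENST00000587845 was listed at 337 and 208 counts without reaching the fold limit. The main transcript of UBE2S, ENST00000264552, at 1113 counts in CP in the comparison with CMes, was not listed here. The UBE2S call therefore does not stand for the gene. The third E2 of that list, UBE2T of the Fanconi anemia pathway, was listed at 413 and 280 counts and not called. Of their partners in the anaphase-promoting complex, 5 of 17 genes were called, beside 30.5% of all protein-coding genes. CDC20, an activator, fell by 2.49 on the log2 scale, and FBXO5, an inhibitor, fell by 2.47, while the subunits ANAPC7, ANAPC13 and ANAPC16 rose by 1.73, 1.04 and 1.40. Cell cycle markers fell beside them: 14 of 17 were called lower and none higher, with log2 changes from -3.01 to -1.35, and the summed level of their 24 listed transcripts was 36206 counts in CP and 8993 in CM. In these bulk samples fewer dividing cells and less of these transcripts per cell cannot be told apart.

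Among 9 broad-range E2 enzymes, UBE2D4, UBE2E1 and UBE2E2 were called higher, and UBE2D2 and UBE2D3 lower. The shares of all protein-coding genes were 16.9% and 14.9%. UBE2E2 rose through 3 transcripts, led by one from 377 to 802 counts (log2 change 1.09 ± 0.17 SE, q = 1.00e-08), and UBE2D4 rose from 157 to 442 counts (log2 change 1.49 ± 0.21 SE). UBE2Q2 rose from 120 to 628 counts (log2 change 2.38 ± 0.40 SE), and UBE2G1, an E2 of lysine 48 chains, from 165 to 393 counts (log2 change 1.25 ± 0.32 SE). UBE2D2, UBE2D3, UBE2K, UBE2V1, USP40 and USP43 were called through transcripts of at most 63.1 counts in either stage. The main transcript of UBE2K, an E2 of lysine 48 chains that was called higher, was listed at 3373 and 2218 counts, and that of UBE2D2, called lower, at 1462 and 2008, so neither call stands for the bulk of its gene. Of 9 USPs of membranes and organelles 1 was called, beside 30.5% of all protein-coding genes. This was USP10, which fell from 2482 to 1354 counts (log2 change -0.87 ± 0.14 SE, q = 9.46e-09).

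Some members were listed at several steps, so that they could be followed on 1 scale. The means of the shared stage differed between neighbouring tables by a nearly constant factor, which put all 5 stages on the scale of the CP to CM table. UBE2H was listed at each of the 4 transitions, at 2421 counts in iPSCs, 1503 in M, 2790 in CMes, 5326 in CP and 8755 in CM. It was the most abundant member transcript per base among those listed at CP to CM, with 1696 counts per 1000 bases in CM, and UBE2L3 had 1056. USP28 (ENST00000003302) took a different course, with 2281, 1692, 1050, 1016 and 3352 counts. UBE2R2, the E2 of cullin-RING ligases, climbed from 2076 counts in iPSCs to 4491 in CP and stood at 2546 in CM. No step of UBE2R2 passed the fold limit, although 3 of them were listed.

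**Figure D3:**
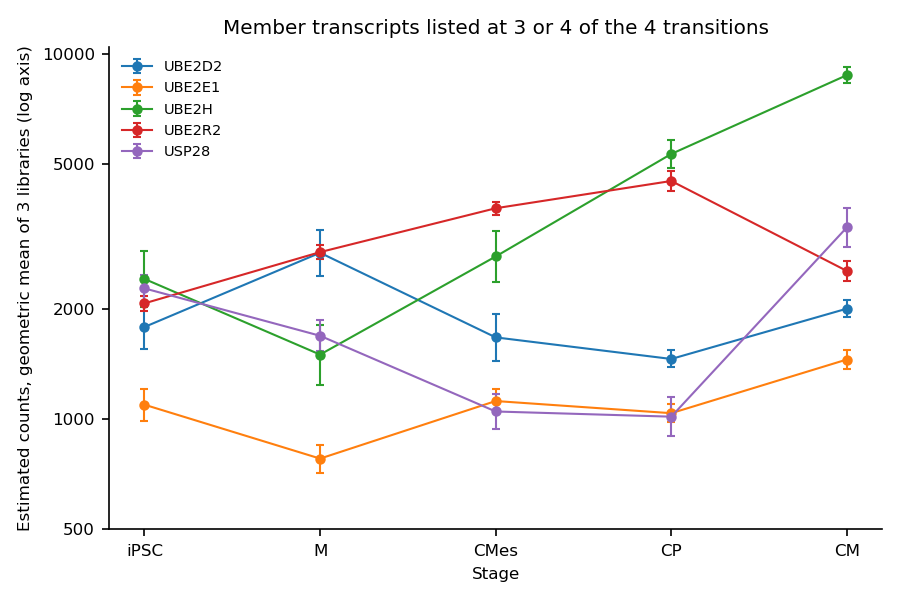
Estimated counts (log axis, geometric mean of 3 libraries, bars ± the replicate SD) over the 5 stages for the 5 member transcripts listed at 3 or 4 of the 4 transitions, on the scale of the CP to CM table. UBE2H is lowest in M and highest in CM, USP28 is lowest in CMes and CP, and UBE2R2 is highest in CP.

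The other genes of the pathway came from lists of 76 genes. At CP to CM, 10 of 35 deubiquitinases of other families were called, 6 higher and 4 lower. Of all protein-coding genes 30.5% had a call at this step, and the lists below are to be read beside that share. Higher were COPS5, of the COP9 signalosome, from 721 to 1307 counts, OTUD1 from 274 to 554, and BRCC3, CYLD, JOSD2 and MINDY1. UCHL1, known from neurons, fell from 111 to 39.0 counts through its most abundant called transcript, and OTUB1, OTUD5 and STAMBP were called lower. Another UCHL1 transcript, ENST00000514764, had 943 counts in CP in the comparison with CMes, so the call shown need not stand for the gene. Of the 4 ubiquitin genes UBB and RPS27A were called lower and none higher, with log2 changes of -1.30 and -0.95. The transcripts behind these values went from 263 to 107 counts for UBB and from 844 to 436 for RPS27A. They need not stand for the whole genes. Of 8 E1 enzymes 1 was called, UBA2, which was lower, and of 7 E2 enzymes under other names AKTIP and ATG10 were called higher. The transcripts of UBE2B itself rose at this step, with log2 changes from 1.22 to 1.64, and UBE2A rose by 0.85.

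In the mutant lines the targeted gene was checked first. A noncoding transcript of UBE2B was lower in UBE2B-/-1 (log2 change -1.91 ± 0.53 SE, q = 0.0113). No protein-coding UBE2B transcript was listed for either line, and no UBE2B transcript of any kind for UBE2B-/-2. RNA can remain after an edit that ends the protein, so these values do not settle the label of either line. The paper reports a check of the knockouts by cDNA sequencing. UBE2A, the near-identical partner enzyme, was listed on the lower side in UBE2B-/-1 (log2 change -0.68 ± 0.20 SE, not called). The mutant CM libraries also differed in cell type markers. Of 14 cardiomyocyte markers 11 were called lower in both lines, and the summed level of the 38 transcripts of the list with a value in both was 571255 counts in wild type, 143794 in UBE2B-/-1 and 133022 in UBE2B-/-2. Of 10 mesenchymal markers 2 were called higher in both lines, COL3A1 and DCN, and 11 transcripts of that list summed to 12693, 124099 and 295750 counts. How far any member below moved with the share of CMs was not tested.

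Of the member transcripts 33, from 21 genes, were listed for either line, and 28 of them were called. For UBE2B-/-1 6 were called higher and 12 lower, beside 2.18% and 1.71% of all 65457 transcripts tested. For UBE2B-/-2 7 were called higher and 16 lower, beside 2.46% and 1.53%. In both lines and the same direction 6 were called higher and 7 lower, beside 1.52% and 0.909%, and none was called in opposite directions. At a q-value limit of 0.01 the split was 5 higher and 3 lower. Both lines were compared with the same 3 wild-type libraries, so an error in those libraries would appear in both. Counted by gene, both lines had a lower transcript for 6 of 85 (7.06%, against 2.12% of all protein-coding genes) and a higher one for 5 (5.88%, against 4.25%). All 19975 protein-coding genes count here whether expressed or not, while 68 of the 85 were listed in some comparison. A gene with more transcripts has more chances of a call, so these shares do not measure enrichment.

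The 7 transcripts lower in both lines came from USP2, USP13, USP16, USP28, USP53 and UBE2Q2. USP28 (ENST00000003302) had 3868 counts in wild-type CMs, 1745 in UBE2B-/-1 and 1628 in UBE2B-/-2, a mean log2 change of both lines of -1.20 ± 0.23 SE (q = 3.23e-05). Here and below, the transcripts were picked for a call in both lines, so the q-value of their mean adds no support. The SE of that mean holds the spread between libraries and not the spread between lines. USP13 had 3521, 1360 and 1429 counts (mean log2 change -1.34 ± 0.32 SE), and USP16 (ENST00000399975) had 691, 298 and 266 (mean -1.29 ± 0.29 SE). USP53 was lower through 2 transcripts. Its ENST00000450251 had 463, 188 and 192 counts, and ENST00000509769, annotated as a target of nonsense-mediated decay, had 1125, 497 and 564. USP2 (ENST00000455332) had 704, 387 and 290 counts and UBE2Q2 (ENST00000561851) had 380, 148 and 117. USP15 (ENST00000280377, with the exon of 87 bases) was lower in both lines at 1118, 508 and 650 counts but past the fold limit in UBE2B-/-1 alone. Of these genes, USP2, USP13, USP16 and USP28 were also higher in CM than in CP through the same transcript, and UBE2Q2 through another. That comparison uses the same wild-type CM libraries, so the pair of values is given side by side and is no independent evidence: USP13 had a log2 change of 1.96 from CP to CM and -1.34 in the mutants, USP28 1.72 and -1.20, USP16 1.58 and -1.29, and USP2 2.94 and -1.07.

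The 6 transcripts higher in both lines came from UBE2S, UBE2D2, UBE2D3, USP5 and USP19. UBE2S was higher through 2 transcripts. Its ENST00000589978 had 144 counts in wild type, 398 in UBE2B-/-1 and 395 in UBE2B-/-2 (mean log2 change 1.46 ± 0.25 SE, q = 1.77e-06), and ENST00000264552 had 595, 1379 and 1191. UBE2C, its partner, was listed for neither line. Of 17 cell cycle markers 1 was called in both lines, BIRC5, which was higher. That call rested on a transcript listed at 0 in wild type, with 45.0 counts in UBE2B-/-1 and 25.7 in UBE2B-/-2. USP5 was higher through ENST00000389231, the transcript without the exon extension, at 810, 1864 and 1836 counts (mean log2 change 1.19 ± 0.22 SE, q = 1.05e-05), and the transcript with the extension was listed for neither line. The short transcript of UBE2D2, ENST00000505007, which had also been higher in M, had 60.2, 198 and 213 counts (mean log2 change 1.76 ± 0.34 SE). USP19, of the endoplasmic reticulum, was called through ENST00000434032 with 0.345 counts in wild type, 135 in UBE2B-/-1 and 127 in UBE2B-/-2, with a replicate SD of 1.05.

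UBE2D3 moved in opposite directions by transcript. ENST00000321805, of 1087 bases, was higher in both lines at 630, 1188 and 1288 counts. ENST00000453744, with the same coding sequence and 3729 bases, was lower at 1085, 564 and 663 counts, called in UBE2B-/-1 and listed in UBE2B-/-2. In UBE2B-/-2 ENST00000394803 was called lower as well (log2 change -1.01 ± 0.24 SE, q = 0.00154), and its change in UBE2B-/-1 was not known. Length and GC content moved with the direction among the members. For the 7 lower ones the median GC content was 43.5% and the median length 4669 bases, and for the 6 higher ones 58.6% and 1864.5 bases. Over all transcripts called in both lines the medians were 43.1% and 3268 bases for the lower and 59.2% and 2400 bases for the higher ones, so the whole comparison shows the difference in GC content too, and a smaller one in length. Their part in the members' changes was not tested.

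**Figure D4:**
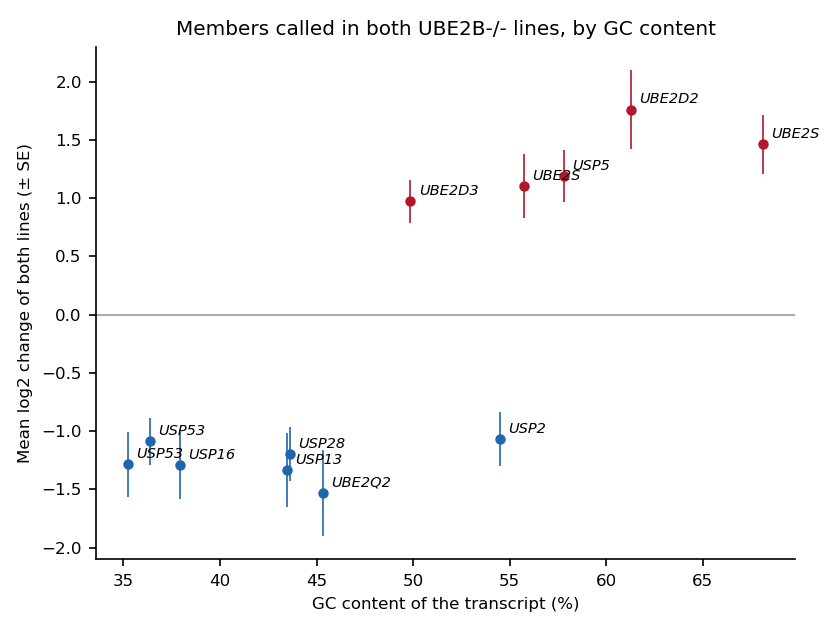
Mean log2 change of both UBE2B-/- lines against wild-type CMs (y axis, ± SE) against GC content (x axis, %) of the member transcripts called in both lines, with higher ones in red and lower ones in blue. USP19, at 7.28, is left out for scale. Apart from USP2, at 54.5%, the lower transcripts lie at 45.3% or less, and the higher ones lie at 49.9% or more.

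The lines could be compared for the 24 member transcripts whose change was known in both. For 15 both changes were listed, and for 9 the second was solved from the variance columns of the fit. None of the 15 listed for both differed between the lines at a q-value of 0.05, adjusted over all 1992 transcripts listed for both, and none at an unadjusted p of 0.05. A miss of this limit does not show that the lines were equal, since the SE of such a difference was 0.22 to 0.43 on the log2 scale for all but USP19. When the 9 solved transcripts and all others of their kind were added, 1 member differed: the USP25 transcript with both extra exons, at 141 counts in wild type, 1.02 in UBE2B-/-1 and 106 in UBE2B-/-2 (log2 changes -6.54 and -0.41, SE 1.34, q of the difference 0.00127, replicate SD 1.64). Transcripts listed for 1 line passed the limit in 1 line and missed it in the other, so adding them favours unequal lines. The q-value of this difference also comes from a normal distribution.

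**Figure D5:**
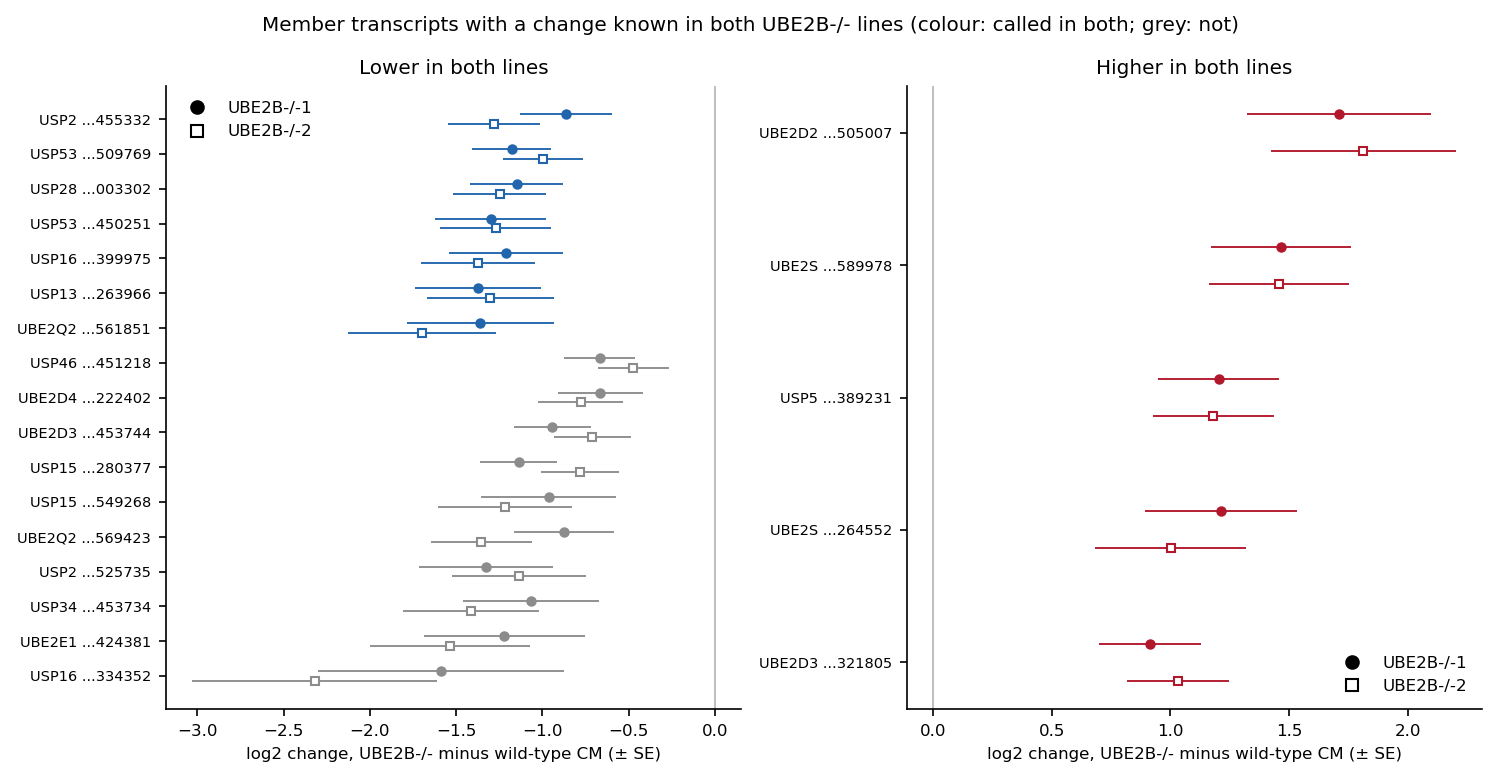
Log2 change (± SE, 3 libraries per group) of the 22 member transcripts with a known change under 4 in both UBE2B-/- lines, by line (filled circle UBE2B-/-1, open square UBE2B-/-2). The 12 in colour were called in both lines, grey ones were not, and USP19 and USP25 lie outside the range.

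Calls in 1 line were more uncertain. In UBE2B-/-2 alone 10 transcripts were called and in UBE2B-/-1 alone 5. For 9 of the 15 the change in the other line was known, and all 9 had the same sign there. The same wild-type libraries enter both changes, so equal signs are no independent evidence. The least precise calls of UBE2B-/-2 had replicate SDs from 2.44 to 3.98 on the log2 scale, namely USP22 (log2 change -10.33 ± 3.25 SE), UBE2H (ENST00000649897, -7.68 ± 2.23) and UBE2D3 (ENST00000349311, -7.39 ± 1.99). Their counts per group were not known. Among the more precise, UBE2E1 (ENST00000424381) had 486, 208 and 167 counts and USP34 (ENST00000453734) 295, 141 and 111. UBE2D4 and USP46, each listed for 1 line and past the fold limit in neither, had 510, 322 and 297 counts and 1428, 899 and 1029 counts. Of the 76 other pathway genes 3 were called in both lines, beside 6.27% of all protein-coding genes. FZR1 and ATXN7L3 were higher and ANAPC16 was lower. None of the 35 other deubiquitinases was called in either line.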

How the data were processed

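RNA of 21 libraries was compared in 6 deposited tables. The authors trimmed reads, estimated counts per transcript with Kallisto against hg38, and tested adjacent stages, and each UBE2B-/- line against wild-type CMs, with the Wald test in Sleuth. The deposited values are p-values and q-values, effects, standard errors and means on a natural log scale with a pseudocount of 0.5, and variance scores of the authors' fit. Since no column holds a single library, the depth of a library is unknown, and precision is given by the standard errors of the fit.

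Log2 changes, group means, replicate SDs and the number of transcripts tested were computed from these columns with Python 3.11.15, pandas 2.3.3 and scipy 1.17.1, and the steps were tested on simulated data. For a transcript listed for 1 line, the other change was solved from the variance columns. Its 2 roots were told apart by the listing limit or by the wild-type mean of the CP to CM table. The mean of both lines has 0.866 times the SE of 1 line, and its q-value counts all 65457 tests. No test was refitted.

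Transcripts were joined to GENCODE 44 without version numbers, with 93.9% to 95.1% matched. Named genes are the members with a called transcript in a comparison or, where more than 30 are called, the 30 with the largest z plus called members of the histone and cell cycle lists. The called transcript of the highest mean speaks for a gene, and listed transcripts that were not called were added after their values were seen. Members and gene lists were chosen with earlier results of these data known. ENST00000229268 and ENST00000400183 have a later version in the annotation than in the tables, and the printed sequence is that of the later one. Alternatives were a limit of 1.5-fold, no fold limit, a q-value of 0.01, a t distribution, a mean of at least 10 estimated counts and coding transcripts only. The values of 1 member gene are not reported here, and it stays in the counts.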

Additional observations from a re-analysis of the deposited data

Results flagged for a closer look

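USP25 ENST00000400183 was the 1 member whose change passed a limit on the difference between the lines. It entered that test by being listed for UBE2B-/-1 and not for UBE2B-/-2, so it was already picked for unequal lines. The log2 change in UBE2B-/-1 minus that in UBE2B-/-2 was -6.13, with a q-value of 0.00127 over the 2886 transcripts with both changes known, of which 52 differed. The change in UBE2B-/-2 was solved and not listed, the counts in UBE2B-/-1 were close to 0, and the replicate SD of 1.64 on the log2 scale is far above the 0.25 of the same transcript from CP to CM.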

How the results depend on the processing

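A limit of 1.5-fold raised the called member transcripts from 10 to 20 at iPSC to M, from 15 to 27 at M to CMes and from 13 to 29 at CMes to CP, and no fold limit raised them to 26, 36 and 38. A q-value limit of 0.01 lowered them from 10 to 6 at iPSC to M, from 23 to 14 for UBE2B-/-2 and from 13 to 8 for both lines together. Coding transcripts alone gave 9 at M to CMes. A t distribution left 3 of 46 calls at CP to CM, USP5 and USP28 among them, and 0 at each earlier transition, for either line and for both lines together. The effects and SEs were the same in that setting, and only the distribution of the test differed. Between the lines 0 members differed among transcripts listed for both and 1, USP25, among those with both changes known. The other settings kept each total within 1.5 times, but not each direction: the 15 lower calls at CP to CM became 8 at a mean of at least 10 estimated counts, 9 at a q-value of 0.01, 25 at 1.5-fold and 27 with no fold limit, and the 7 lower calls of both lines became 3 at a q-value of 0.01. Of 91 changes of named transcripts, 62 stayed called at a q-value of 0.01 and 77 at a mean of at least 10 estimated counts. These settings change limits and not the fitted changes, so they cannot turn a direction.

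No paired analysis was possible because the tables hold no value per library, and for the same reason leaving out each replicate in turn was not run.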
